A study of Mus musculus with 4 samples.

Results

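The CD40, BAFF and TNF receptor family was followed as 10 genes listed by symbol, 7 receptors (*Cd40*, *Tnfrsf13b*, *Tnfrsf13c*, *Tnfrsf1a*, *Tnfrsf1b*, *Ltbr* and *Cd27*) and 3 adaptors of the TRAF family (*Traf1*, *Traf2* and *Traf3*). All 10 were among 55359 genes counted, of which 52083 had a symbol in GENCODE M21. The counts came from bulk RNAseq of T8, a preB leukemia line grown from a single primary tumor of an Irf4-/- mouse. Both groups were therefore Irf4-/-, came from a tumor with mutated *Jak3*, and were transduced with a GFP-coding retrovirus. The vector coded for GFP alone in the controls (EV-RV, 2 libraries) and for GFP plus IRF4 in the other group (IRF4-RV, 2 libraries), and still viable cells were taken a day later. T8 was kept as more than one subline, and which was used, or whether transduced cells were enriched, is not given in the sources used here. The 2 libraries of a group are replicates of 1 line, so the p-values describe the spread between these samples and not between tumors. The comparison asks what IRF4, returned to leukemia cells that arose without it, does to this receptor family.

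TNF family receptors are single-pass membrane proteins that bind trimeric ligands and recruit TRAF adaptors to their cytoplasmic tails. CD40, the receptor for CD40 ligand on helper T cells, drives B-cell activation and the germinal center reaction, while the BAFF receptor (*Tnfrsf13c*) carries survival signals and TACI (*Tnfrsf13b*) binds both BAFF and APRIL. In resting B cells TRAF2 and TRAF3, together with cIAP ubiquitin ligases, keep the kinase NIK low, and engagement of CD40 or the BAFF receptor releases NIK and starts the noncanonical NF-kB pathway through p100 and RelB.

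The libraries held between 31230223 and 37817752 counts. Levels are given as CPM, counts relative to the size of the library after TMM scaling, and 3 counts, the lowest level that can be shown, corresponded to between 0.0824 and 0.0952 CPM. Intervals and this floor cover counting error only. *Irf4* itself went from 8070 and 7600 counts in EV-RV cells to 95578 and 90693 in IRF4-RV cells, where reads from vector and locus were not separated. The level in EV-RV cells, 110 TPM (counts scaled by exon length), was above that of 90.4% of the genes tested although the line is labelled Irf4-/-, and which exons these reads covered was not examined. B-lineage markers were present, with at least 9245 counts of *Cd79a* and *Cd79b* in each library, although *Rag1* and *Rag2* had at most 1 count each. Of the 10 markers of this lineage 8 were tested, 0 rose and 4 fell (*Vpreb1*, *Igll1*, *Il7r* and *Dntt*). The sum of the list went from 3200 and 3330 CPM to 2180 and 2160 CPM. Most of that fall lay in *Igll1* (894 and 1013 to 369 and 407 CPM) and *Vpreb1* (612 and 719 to 230 and 244 CPM). *Cd79a* was level, at 910 and 922 CPM in EV-RV cells and 906 and 907 CPM in IRF4-RV cells, and *Cd79b* was not called either. A list of 8 stromal markers (collagens, *Cxcl12* and others) stood apart in 1 library, at 56.9 and 108 CPM in sum in EV-RV cells and at 56.0 and 263 CPM in IRF4-RV cells, so that replicate 2 was above replicate 1 in both groups. The lines were first grown on ST2 stromal cells and, per the paper, no longer needed them after several passages. Since these are bulk samples, a larger share of cells of a type and more RNA per cell cannot be told apart.

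Of the 10 genes, 8 passed the filter on low counts and 5 of these rose in IRF4-RV cells (*Cd40*, *Tnfrsf13b*, *Tnfrsf13c*, *Tnfrsf1b* and *Traf1*), while 0 fell. Here and below, a gene was called when edgeR's quasi-likelihood test gave an adjusted p under 0.1. At an unadjusted p under 0.05 the number that fell was also 0, and DESeq2 called 4 higher and 0 lower. Across all 14637 genes tested, 16.0% were called higher and 13.7% lower, 29.7% in all. When counts were scaled by library size alone, 37.8% of all calls were higher, compared with 53.8% after TMM, and the members still held 5 higher and 0 lower. *Cd40* and *Traf1* passed the filter through the IRF4-RV libraries alone, so their entry into the test already required a difference. Of the 6 tested members that also reached the filter in EV-RV libraries, 3 rose and 0 fell. *Traf2*, *Traf3* and *Tnfrsf1a* were not called, and *Ltbr* and *Cd27* were too low to be tested.

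**Figure D1:**
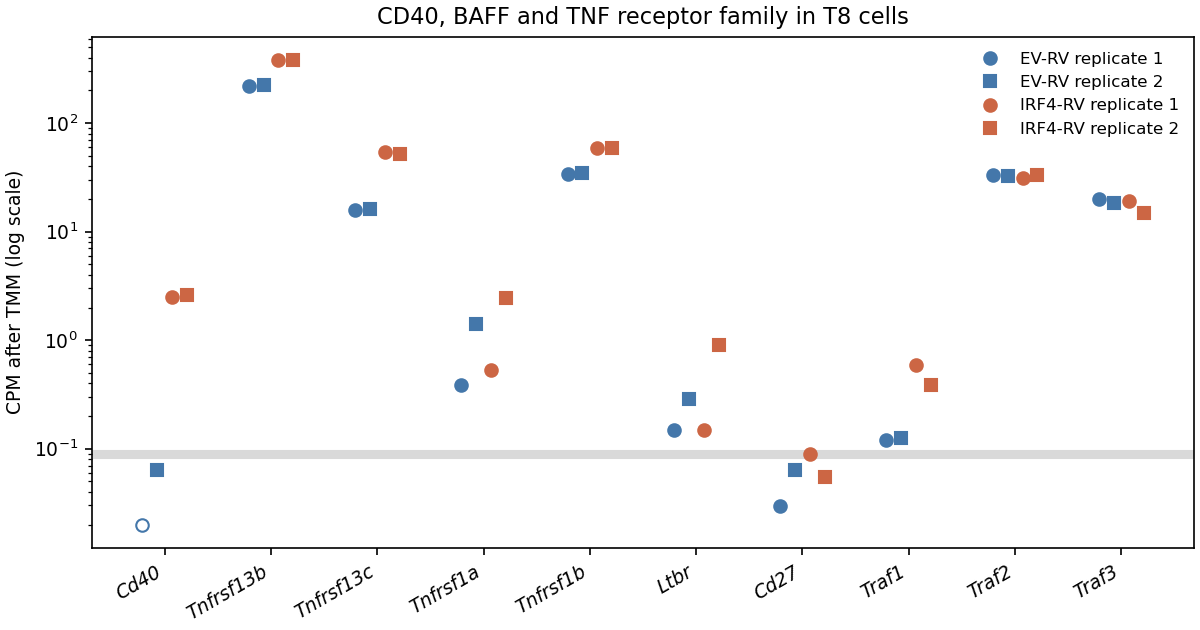
CPM after TMM scaling (log axis) of the 10 genes in each of the 4 libraries, circles for replicate 1 and squares for replicate 2, EV-RV in blue and IRF4-RV in orange; the gray band marks 3 counts and the open circle a count of 0, drawn at an arbitrary low position. *Cd40*, both BAFF-binding receptors, *Tnfrsf1b* and *Traf1* are higher in both IRF4-RV libraries, whereas *Tnfrsf1a* and *Ltbr* separate by replicate number.

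*Cd40* (ENSMUSG00000017652, chromosome 2 of GRCm38, 165055627 to 165072948, plus strand) had 0 and 2 counts in EV-RV cells and 84 and 94 counts in IRF4-RV cells, or 2.48 and 2.58 CPM. The transcript was at or under the floor in both control libraries and clearly counted, at a modest level, in both others. Summed counts of 178 against 2 gave a ratio of 82.2 after scaling (exact 95% counting interval 22.4 to 684). The fitted log2 fold change, 6.20, depends on the prior count and is no bound. It was 5.23 without EV-RV replicate 1 and 9.45 without EV-RV replicate 2. The edgeR adjusted p was 0.000416, in a test that the gene entered through the IRF4-RV libraries alone.

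Cells other than B cells also express CD40, so the markers of such cells are given beside it. Of 10 macrophage and granulocyte markers, *Adgre1*, *S100a8* and *S100a9* had 0 counts in all 4 libraries, and of 8 dendritic cell markers *Itgax*, *Siglech* and *Cd209a* had 0. The summed level of the first list lay between 0.634 and 0.839 CPM in EV-RV cells and between 2.47 and 2.86 CPM in IRF4-RV cells, and that of the second between 1.33 and 1.56 CPM and between 4.19 and 4.50 CPM. One gene in each list carried most of the rise. *Ly6g* went from 1 and 0 to 71 and 58 counts, and the other 9 markers of its list held 27 and 20 counts in EV-RV cells and 26 and 32 in IRF4-RV cells. *Flt3* went from 23 and 14 to 101 and 112 counts, and the other 7 dendritic markers held 29 and 28 counts in EV-RV cells and 41 and 52 in IRF4-RV cells. Of 10 T and NK cell markers *Cd8a*, *Ncr1* and *Gzmb* had 0 counts throughout, and the list summed to between 1.97 and 3.03 CPM in EV-RV cells and to 2.01 and 2.39 CPM in IRF4-RV cells.

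The tested genes whose levels were closest to those of *Cd40* over the 4 libraries, by Euclidean distance of log2(CPM + 0.1), were *Gbp10* (distance 0.617), *Gm47242* (0.709) and *Slfn5* (0.871). *Gbp10* had 1 and 1 counts in EV-RV cells and 76 and 73 in IRF4-RV cells. With 4 libraries such a ranking rests on little more than the group difference and the level.

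Both BAFF-binding receptors rose. *Tnfrsf13c* (ENSMUSG00000068105, chromosome 15, 82221743 to 82224369, minus strand), which encodes the BAFF receptor, was at 15.7 and 16.2 CPM in EV-RV cells and at 54.6 and 51.9 CPM in IRF4-RV cells. The groups lay far apart relative to the difference between replicates. Its log2 fold change was 1.74 (standard error [SE] 0.0907, edgeR adjusted p = 1.72e-05), a 3.34-fold rise, and ranged from 1.68 to 1.78 when libraries were omitted one by one. *Tnfrsf13b* (ENSMUSG00000010142, chromosome 11, 61126755 to 61149372, plus strand), which encodes TACI, was abundant in the controls already, at 221 and 225 CPM, and reached 382 and 381 CPM. The log2 fold change was 0.77 (SE 0.0687, edgeR adjusted p = 0.000217), or 1.71-fold.

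The ratio between the pair follows from both fold changes, and its difference between the groups was not tested. For levels between genes, counts were divided by the length of all annotated exons and brought to a common total in each library (TPM, which takes gene length into account). On this scale TACI exceeded the BAFF receptor 10.2-fold and 10.0-fold in the EV-RV libraries and 5.05-fold and 5.30-fold in the IRF4-RV libraries. The groups did not overlap, as was the case for the levels of 61.3% of all genes tested. *Tnfrsf17*, the gene of the remaining BAFF and APRIL receptor BCMA, had 0 counts in both EV-RV libraries and 4 and 0 in IRF4-RV cells, near the floor.

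*Tnfrsf1b* (ENSMUSG00000028599, chromosome 4, 145213463 to 145246870, minus strand) encodes TNFR2, which binds TRAF2 and lacks a death domain. It was at 34.3 and 34.6 CPM in EV-RV cells and at 59.4 and 58.5 CPM in IRF4-RV cells. Replicates were nearly equal and the groups were well separated. The log2 fold change of 0.78 (SE 0.0817, edgeR adjusted p = 0.000491) lies beside the 0.77 of *Tnfrsf13b*, and the difference of these changes was not tested.

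The bases upstream of these genes are shown because the receptors rose together, and that of *Traf3* because it holds a match to the NF-kB consensus. RefSeq promoter windows on GRCm38.p6 were matched for 9 of the 10 genes, all but *Cd40*, and the 250 bases before each start were searched on both strands for an interferon response element (GAAANNGAAA), an ETS-IRF composite element (GGAANNGAAA), a STAT element (TTCNNNGAA) and the NF-kB consensus. The first and the second differ in their opening letters and can overlap in part. Capitals mark matches. The windows are, for *Tnfrsf1b*, chr4:145246871-145247120 on the minus strand, for *Tnfrsf13b*, chr11:61126505-61126754 on the plus strand, for *Tnfrsf13c*, chr15:82224381-82224630 on the minus strand, and for *Traf3*, chr12:111166120-111166369 on the plus strand.
Tnfrsf1b: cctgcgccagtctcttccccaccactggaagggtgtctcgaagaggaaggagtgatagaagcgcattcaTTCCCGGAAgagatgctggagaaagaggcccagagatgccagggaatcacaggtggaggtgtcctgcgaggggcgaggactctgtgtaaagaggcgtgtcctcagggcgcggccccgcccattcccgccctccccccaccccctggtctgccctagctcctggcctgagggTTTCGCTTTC
Tnfrsf13b: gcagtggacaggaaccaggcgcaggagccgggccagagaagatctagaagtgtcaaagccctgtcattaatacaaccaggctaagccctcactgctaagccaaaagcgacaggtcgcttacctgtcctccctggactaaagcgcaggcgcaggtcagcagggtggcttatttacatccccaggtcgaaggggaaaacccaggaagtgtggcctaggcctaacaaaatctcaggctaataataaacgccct
Tnfrsf13c: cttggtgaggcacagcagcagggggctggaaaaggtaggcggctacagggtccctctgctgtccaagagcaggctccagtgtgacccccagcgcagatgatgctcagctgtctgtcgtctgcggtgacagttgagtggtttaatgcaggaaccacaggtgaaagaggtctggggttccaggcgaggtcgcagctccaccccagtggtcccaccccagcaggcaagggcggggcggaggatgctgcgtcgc
Traf3: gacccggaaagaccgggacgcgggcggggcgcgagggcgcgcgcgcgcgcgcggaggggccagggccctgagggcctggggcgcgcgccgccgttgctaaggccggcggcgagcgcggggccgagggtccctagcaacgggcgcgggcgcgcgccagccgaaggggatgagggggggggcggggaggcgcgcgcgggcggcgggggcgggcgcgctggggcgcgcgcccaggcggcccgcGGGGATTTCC

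The window of *Tnfrsf1b* held an interferon response element on the opposite strand, in the last 10 bases before the start, and a STAT element beginning 181 bases before it. In all 32851 windows of the table these were found in 2.98% and 7.02%. None of the 4 motifs was in the windows of *Tnfrsf13b*, *Tnfrsf13c*, *Traf1*, *Traf2*, *Ltbr* and *Cd27*. *Traf3* held the NF-kB consensus, present in 7.25% of windows, directly before its start. *Tnfrsf1a* held a STAT element beginning 244 bases before its RefSeq start. That window, chr6:125349473-125349722, lies inside the GENCODE span of the gene, which begins at 125349362, so the element is not upstream of the GENCODE start. The ETS-IRF composite element, at 2.30% of all windows, was in none of the 9. A match describes letters only, and binding was not measured here.

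*Tnfrsf1a*, *Ltbr* and *Cd27* neighbor each other on chromosome 6. *Tnfrsf1a* (ENSMUSG00000030341, 125349362 to 125362484, plus strand) encodes TNFR1, the death domain receptor for TNF. It had 13 and 44 counts in EV-RV cells and 18 and 90 in IRF4-RV cells. Both replicate 2 libraries were high and both replicate 1 libraries low, whichever vector they carried, so the groups overlapped. The log2 fold change was 0.76 (SE 0.756, edgeR adjusted p = 0.525). Its direction and call depended on single libraries, at -0.73 without IRF4-RV replicate 2 (adjusted p = 0.496) and 1.46 without IRF4-RV replicate 1 (adjusted p = 0.00866).

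*Ltbr* (ENSMUSG00000030339, 125306571 to 125313885, minus strand), the receptor for membrane lymphotoxin, had 5 and 9 counts in EV-RV cells and 5 and 33 in IRF4-RV cells. As with *Tnfrsf1a*, 1 library, IRF4-RV replicate 2, stood above the other 3. It was left out by the filter, and with all genes counted at least once its adjusted p was 0.232 (edgeR), whereas without IRF4-RV replicate 1 it was tested and gave 0.0419.

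The stromal markers moved with both genes. They summed to 1900 and 3402 counts in EV-RV cells and to 1895 and 9586 in IRF4-RV cells. For each 1000 of these counts *Ltbr* had 2.63 and 2.65 counts in EV-RV cells and 2.64 and 3.44 in IRF4-RV cells. *Tnfrsf1a* had 6.84 and 12.9, then 9.50 and 9.39. The values of *Ltbr* rest on 5, 9, 5 and 33 counts, so their counting error is wide and their closeness cannot be judged. The list was not uniform, since *Dcn* had 0 counts in 3 libraries and 2 in the other. The part of such cells in the level of either receptor was not tested.

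**Figure D2:**
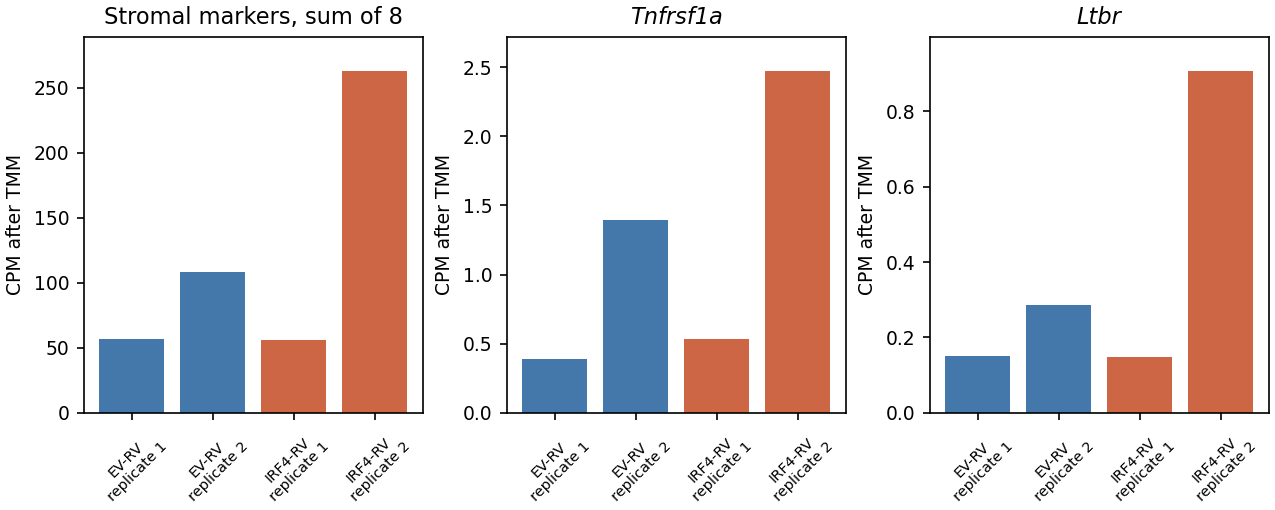
CPM after TMM scaling, on linear axes from 0, of the sum of 8 stromal markers, of *Tnfrsf1a* and of *Ltbr* in each library, EV-RV in blue and IRF4-RV in orange. In each panel the bars for replicate 2 stand above those for replicate 1 of the same group, and IRF4-RV replicate 2 is highest.

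Replicate 2 over replicate 1 was 1.89 for the stromal sum in EV-RV cells and 4.71 in IRF4-RV cells. The same ratio was 1.02 and 0.999 for *Tnfrsf13b*, 1.03 and 0.952 for *Tnfrsf13c* and 1.01 and 0.984 for *Tnfrsf1b*, and in IRF4-RV cells it was 1.04 for *Cd40*, which has no such ratio in EV-RV cells. The part of stromal cells in these levels was not tested. *Cd27* (ENSMUSG00000030336, 125232622 to 125237010, minus strand), a costimulatory receptor and marker of memory B cells in humans, had 1 and 2 counts in EV-RV cells and 3 and 2 in IRF4-RV cells. At 5 against 3 counts in sum, with a ratio of 1.54 (exact 95% counting interval 0.299 to 9.91), a difference was not detectable at this depth.

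Among the adaptors, *Traf1* (ENSMUSG00000026875, chromosome 2, 34941750 to 34961772, minus strand), which lacks the RING domain of the other TRAFs and is itself induced by NF-kB, rose from very low levels. It had 4 and 4 counts in EV-RV cells and 20 and 14 in IRF4-RV cells. The log2 fold change was 1.95 (SE 0.587, edgeR adjusted p = 0.0490). This is a weak call, since the adjusted p became 0.259 without EV-RV replicate 1, 0.246 without EV-RV replicate 2 and 0.329 without IRF4-RV replicate 1, and DESeq2 gave no adjusted p for it.

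*Traf2* and *Traf3*, the adaptors that hold NIK in check, did not pass the test. *Traf2* (ENSMUSG00000026942, chromosome 2, 25517982 to 25546940, minus strand) was at 33.0 and 32.6 CPM in EV-RV cells and at 31.3 and 33.4 CPM in IRF4-RV cells, overlapping, with a log2 fold change of -0.02 (SE 0.0886, edgeR adjusted p = 0.910). *Traf3* (ENSMUSG00000021277, chromosome 12, 111166370 to 111267153, plus strand) was at 19.9 and 18.3 CPM in EV-RV cells and at 19.3 and 14.8 CPM in IRF4-RV cells. Only IRF4-RV replicate 2 lay below the rest. The log2 fold change was -0.17 (SE 0.139, edgeR adjusted p = 0.448), and it was -0.39 (adjusted p = 0.0766) without IRF4-RV replicate 1 and 0.02 (adjusted p = 0.961) without IRF4-RV replicate 2. Over all libraries left out in turn, the log2 fold change of *Traf2* stayed between -0.06 and 0.01.

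**Figure D3:**
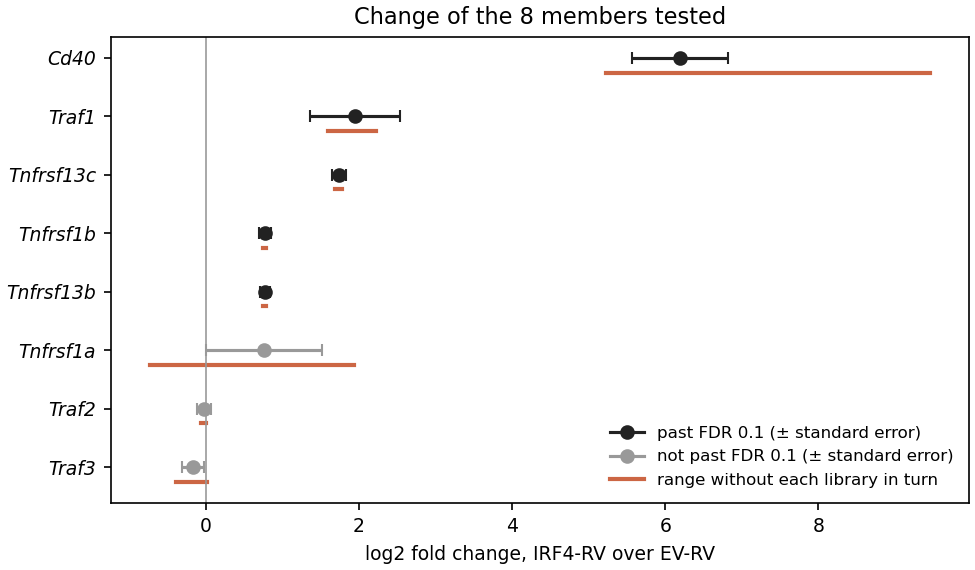
Log2 fold change of IRF4-RV over EV-RV for the 8 genes tested, with bars for the standard error, black where the adjusted p was under 0.1 and gray otherwise, and an orange line for the range when each library is left out in turn. The fitted value of *Cd40* depends on the prior count. *Tnfrsf13b*, *Tnfrsf13c* and *Tnfrsf1b* have the narrowest ranges among the genes called, while the lines of *Tnfrsf1a*, *Traf2* and *Traf3* cross 0.

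Ordered by TPM in EV-RV cells, *Tnfrsf13b* came first at 176 ± 6.85 (SD, n = 2), above 93.8% of the genes tested. It was followed by *Tnfrsf1b* at 20.2 ± 0.902, *Tnfrsf13c* at 17.4 ± 0.527, *Traf2* at 14.4 ± 0.868 and *Traf3* at 5.83 ± 0.629 (SD, n = 2 each), whose libraries did not overlap between neighbors in this order. The order of *Tnfrsf13c* and *Traf2* depended on the length used, since over the longest transcript the EV-RV libraries stood at 14.7 and 14.1 TPM for *Tnfrsf13c* and at 14.9 and 13.6 TPM for *Traf2* and overlapped. *Tnfrsf1a*, *Ltbr*, *Cd27*, *Traf1* and *Cd40* lay below 1 TPM on average. In IRF4-RV cells *Tnfrsf13c* moved past *Tnfrsf1b*, at 53.6 ± 3.08 against 31.8 ± 1.08 TPM (SD, n = 2 each), and again their libraries did not overlap. *Cd40* reached 1.53 ± 0.00886 TPM (SD, n = 2), above 19.5% of the genes tested, and could not be ordered against *Tnfrsf1a*, at 0.430 and 1.94 TPM. The same length raised *Traf1* in EV-RV cells from 0.0313 to 0.0642 TPM.

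Further genes of the pathway were read from 5 lists, and 33 of the 67 tested among their 97 genes were called, 25 higher and 8 lower. Across all genes 16.0% were called higher and 13.7% lower, 29.7% in all. The median log2 fold change was 0.22 over the 67 and 0.01 over all genes. The lists were chosen with earlier results of these data known, so such shares and medians are description only and test nothing. Genes named are the 3 with the largest change in each list among called genes averaging 50 or more normalized counts, and *Tnfrsf17*, *Tnfrsf26*, *Relt*, *Ltb*, *Cd40lg*, *Tnfsf13b*, *Tnfsf13*, *Cd70*, *Tnf*, *Traf4*, *Traf3ip3*, *Ikbkb*, *Chuk*, *Rela* and *Cd83* were singled out after their values were seen.

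Of 21 other TNF receptors, 10 were tested, 2 rose and 3 fell. *Tnfrsf14*, the gene of HVEM, which binds LIGHT and BTLA, rose from 137 and 112 to 265 and 272 counts, 1.99-fold (edgeR adjusted p = 0.00321). *Tnfrsf26* rose as well, by 0.66 on the log2 scale, which the next values also use (edgeR adjusted p = 0.0261). *Tnfrsf21*, which encodes the death domain receptor DR6, fell by 0.74 (SE 0.113, edgeR adjusted p = 0.00292). *Tnfrsf19* (TROY) fell by 0.73 (edgeR adjusted p = 0.000796), from 2489 and 2370 to 1600 and 1572 counts, and *Relt* fell by 0.43 (adjusted p = 0.0166). Receptors of this superfamily thus moved in both directions, as did all genes tested, with 16.0% called higher and 13.7% lower.

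Of 18 ligands, 6 were tested, 1 rose and 3 fell, so 66.7% of those tested were called, against 29.7% of all genes. *Tnfsf4*, which encodes OX40 ligand, went from 162 and 147 to 19 and 27 counts, and fell by 2.86 on the log2 scale (SE 0.251, edgeR adjusted p = 0.000205). *Lta*, which encodes lymphotoxin alpha, a ligand of both TNF receptors, went from 1587 and 1645 to 464 and 547 counts and fell by 1.79 (SE 0.102, edgeR adjusted p = 2.47e-05). *Ltb*, whose product pairs with lymphotoxin alpha to bind the *Ltbr* receptor, fell by 0.54 (edgeR adjusted p = 0.0222). *Tnfsf10*, the gene of the death ligand TRAIL, rose by 1.16 (SE 0.133, edgeR adjusted p = 0.000776), from 151 and 142 to 354 and 354 counts. Transcripts of the ligands of CD40, the BAFF receptor and TACI were at or under the floor. *Cd40lg* had 0 counts in all 4 libraries, which allows up to 3 counts in each, *Tnfsf13b* (BAFF) had 1 count in a single library and *Tnfsf13* (APRIL) had at most 2. *Cd70*, the gene of the CD27 ligand, also had 0 counts throughout, and *Tnf* itself had 5 and 4 counts in EV-RV cells and 10 and 6 in IRF4-RV cells.

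All 23 TRAF partners were tested, and 11 rose and 2 fell, so 56.5% were called, against 29.7% of all genes. *Trafd1*, a TRAF-type zinc finger protein known as a brake on innate signaling, rose by 1.76 on the log2 scale (SE 0.0869, edgeR adjusted p = 1.35e-05), from 1068 and 1022 to 3511 and 4163 counts. *Traf5*, an adaptor of CD40 and CD27, rose by 1.33 (SE 0.108, edgeR adjusted p = 0.000142). *Tnfaip3*, the gene of the ubiquitin-editing NF-kB inhibitor A20, rose by 1.14 (SE 0.198, edgeR adjusted p = 0.00528), from 94 and 68 to 190 and 196 counts. The genes that fell were *Traf4* (by 0.73, edgeR adjusted p = 0.000554) and *Traf3ip3* (by 0.61, edgeR adjusted p = 0.00517). Within the TRAF genes, then, *Traf1* and *Traf5* were called higher and *Traf4* lower.

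Of 13 NF-kB kinases and subunits, all tested, 4 rose and 0 fell in edgeR (0 at an unadjusted p under 0.05, and 0 in DESeq2, which called 4). This share of 30.8% was near that of all genes. Without EV-RV replicate 2 the list held 3 higher and 1 lower, *Ikbkb*, which encodes IKK beta (log2 fold change -0.32, adjusted p = 0.0935, against -0.15 and 0.455 in all libraries). *Nfkb2*, which encodes p100, rose by 1.11 on the log2 scale (SE 0.0898, edgeR adjusted p = 0.000138), from 576 and 558 to 1287 and 1358 counts. *Relb*, its partner, rose by 0.86 (SE 0.108, edgeR adjusted p = 0.00121), from 295 and 296 to 563 and 598 counts. *Map3k14*, which encodes NIK, had 86 and 36 counts in EV-RV cells and 169 and 122 in IRF4-RV cells, a log2 fold change of 1.16 (edgeR adjusted p = 0.0628) that fell to 0.69 (adjusted p = 0.179) without EV-RV replicate 2. *Rela* rose by 0.24 (adjusted p = 0.0623) and was called in 1 of the 4 fits with a library left out. *Chuk*, the gene of IKK alpha, was not called, with a log2 fold change of 0.05 (adjusted p = 0.740).

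Of 22 genes commonly induced by CD40 or NF-kB, 15 were tested, 7 rose and 0 fell in edgeR (0 at an unadjusted p under 0.05, and 0 in DESeq2, which called 7). The share called was 46.7% of those tested. Among all genes tested, 16.0% were called higher and 13.7% lower, 29.7% in all. *Nfkbiz*, the gene of the nuclear inhibitor family member IkB zeta, rose by 2.07 on the log2 scale (SE 0.243, edgeR adjusted p = 0.000871), from 31 and 39 to 143 and 177 counts. *Il2ra*, which encodes CD25, rose by 1.77 (SE 0.132, edgeR adjusted p = 8.32e-05). *Nfkbie*, which encodes IkB epsilon, rose by 1.71 (SE 0.101, edgeR adjusted p = 2.93e-05), from 315 and 317 to 1044 and 1192 counts. *Cd83*, a surface marker of activated B cells and below the count minimum, had 11 and 12 counts in EV-RV cells and 47 and 48 in IRF4-RV cells (log2 fold change 1.92, edgeR adjusted p = 0.0101). The other 8 genes tested were not called.

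**Figure D4:**
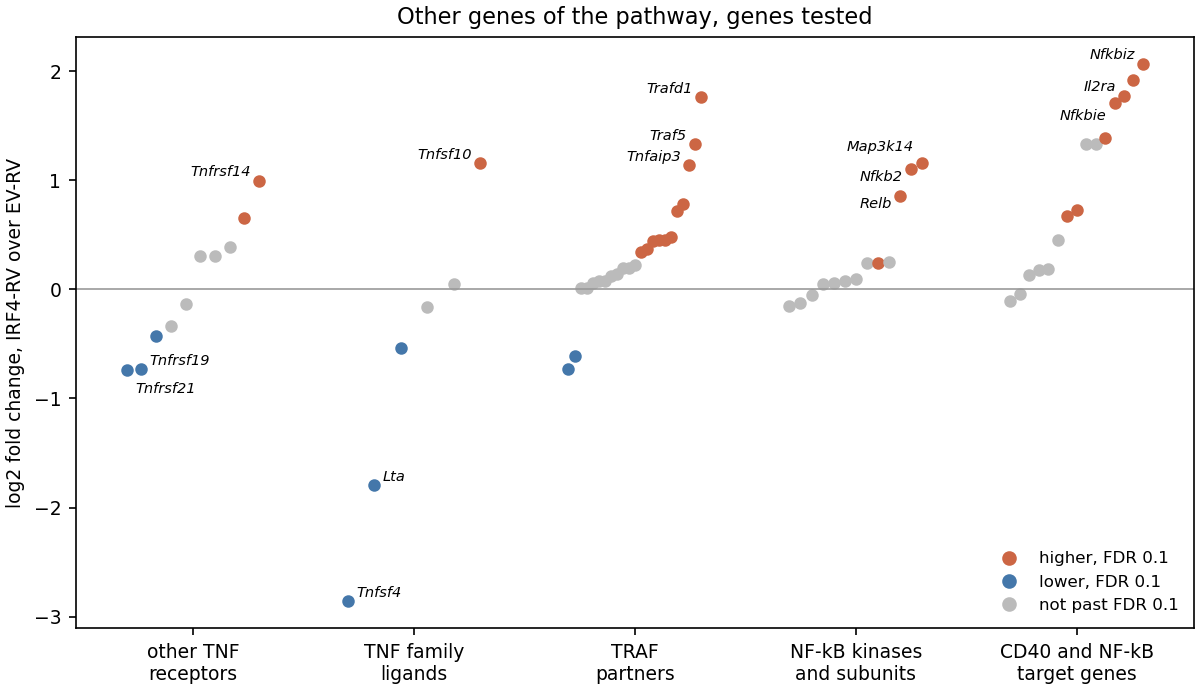
Log2 fold change of IRF4-RV over EV-RV of the genes tested in the 5 pathway lists, 1 point per gene ordered by value within its list, orange where called higher, blue where called lower and gray otherwise. Points above 0 dominate among the calls for TRAF partners, NF-kB subunits and target genes, and 3 of the 4 ligands called lie below 0.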

How the data were processed

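Bulk RNAseq of T8 cells was analyzed, with 2 EV-RV and 2 IRF4-RV libraries grouped by their titles. The protocol text of the labels names T11, while titles and tissue name T8. Per the labels, the authors used FastQC (0.11.2), STAR (2.4.0j) on GRCm38 and featureCounts, and deposited raw counts per Ensembl gene without normalization. The settings for strand and multimapping reads are not given in the sources used here. Identifiers without a GENCODE M21 symbol held between 0.203% and 0.486% of the counts. No exon of the 10 genes overlapped another gene with counts.

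Genes passing filterByExpr were tested with edgeR 4.0.16 (R 4.3.3), by its quasi-likelihood F test after TMM scaling, with Benjamini-Hochberg adjusted p-values over all genes and a cutoff of 0.1. Each SE was taken from that test, as the absolute log2 fold change over the square root of its F statistic. TPM were computed over exon lengths. The procedure was tested on 3 simulated sets of counts, with 200 of 14637 genes changed 2-fold. It recovered 74.2% of these, and 9.27% of its calls were false. The data held 4349 called genes, so these rates need not hold for them. Alternatives were DESeq2 1.42.0, other scalings, filters and cutoffs, a replicate block and each library left out. Named genes are the 10 members, *Irf4*, in each pathway list the 3 called genes with the largest change and a mean of at least 50 normalized counts, any gene of the pathway lists with at most 3 counts in each library of one group and at least 20 in each of the other (none was found), and the 3 genes closest to *Cd40*. Members and lists were chosen with earlier results of these data known. One marker of the B-lineage list is not reported here and was left out of its counts. Promoters are from RefSeq.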

Additional observations from a re-analysis of the deposited data

How the results depend on the processing

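With 2 libraries per group, calls rest on a spread estimated mostly across genes, and genes near 3 counts cannot be ranked. The members called numbered between 4 and 7 with a library left out (7 without IRF4-RV replicate 1, with *Tnfrsf1a*, *Ltbr* and *Traf3* called and *Traf1* lost), and all genes called between 3573 and 3646. Counts in the lists ranged with a library left out from 5 to 7 for other TNF receptors, 12 to 13 for TRAF partners, 3 to 4 for NF-kB kinases and subunits (1 of them lower without EV-RV replicate 2) and 7 to 8 for target genes, and stayed at 4 for the ligands. For NF-kB kinases and subunits, 2 genes were called in place of 4 with library size only and 2 at an FDR cutoff of 0.05. The cause was not tested with library size only. Among the members, 3 log2 fold changes turned direction with a library left out. That of *Tnfrsf1a* ranged from -0.73 (without IRF4-RV replicate 2) to 1.94, that of *Traf2* from -0.061 to 0.0065 (without IRF4-RV replicate 1) and that of *Traf3* from -0.388 to 0.0179 (without IRF4-RV replicate 2). The cause was not tested. Of 86 alternative values for the 8 members tested 78 kept direction and call, and of 209 for the other named genes 206 did. Left out of the 86 are *Ltbr*, *Cd27* and the settings in which *Traf1* had no adjusted p or was not tested. *Traf1* fell under the filter of 1 CPM in 2 libraries.

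The libraries share replicate numbers in their titles, descriptions and count column names only. Across 14637 genes, which are not independent of each other, Pearson's r between the deviations of the replicate 1 libraries from their group means was 0.284. A fit blocked on the replicate number called 6394 genes in place of 4349 and 5 members, as without it, with 6 NF-kB kinases and subunits in place of 4.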

Other observations

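Among other TNF receptors, *Tnfrsf9* and *Tnfrsf11b*, chosen after their values were seen, also had their highest level in IRF4-RV replicate 2, the library with the most stromal marker counts. *Tnfrsf9*, which encodes 4-1BB, had 32 and 38 counts in EV-RV cells and 22 and 79 in IRF4-RV cells. *Tnfrsf11b*, which encodes the decoy receptor osteoprotegerin, had 1 and 5 counts in EV-RV cells and 6 and 35 in IRF4-RV cells. The part of stromal cells in these levels was not tested.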
